A study of Homo sapiens with 9 samples.

Results

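The 8 genes described here encode transcription factors that lay down and maintain endoderm-derived epithelium: HNF4A, HNF4G, FOXA1, FOXA2, FOXA3, NR5A2, CDX2 and GATA6. They were taken by symbol from a table of 57905 gene IDs, each symbol matched 1 ID, and all 8 passed the filter on low counts that left 16916 genes for testing. The genes were picked with their levels in these libraries known, so their levels and fold changes are given as a description, with standard errors and without tests.

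The cells were A549, an established human lung adenocarcinoma line, grown with 5% serum. There were 9 libraries in 3 groups of 3: shAKR1B1, in which a short hairpin RNA (shRNA, which directs the breakdown of a matching transcript) lowered aldose reductase; shSORD, in which another lowered sorbitol dehydrogenase; and plko, the controls. Aldose reductase and sorbitol dehydrogenase are the enzymes of the polyol pathway, the route from glucose by way of sorbitol to fructose, and the series asks how that pathway relates to the aggressiveness of cancer cells. The controls carry the title plko and a treatment label of scrambled control, which leaves it unstated whether their vector held a hairpin. Each target has 1 hairpin label and is set against 1 control label, so the effect of a hairpin sequence or of the control population cannot be told apart from that of the group. The series calls the libraries of a group biological replicates without saying whether they came from separate transductions, so p-values and errors speak only of the spread among these libraries, which may be technical.

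HNF4 and FOXA proteins work at different steps of the same regulatory layer. FOXA1, FOXA2 and FOXA3 are forkhead factors that can bind sites in closed chromatin and open them to other regulators, and they act in foregut derivatives that include liver, pancreas and lung. HNF4A and HNF4G are nuclear receptors that bind DNA as dimers and drive hepatic, renal and intestinal genes, while NR5A2 is a nuclear receptor that binds as a monomer and controls bile acid and cholesterol genes. GATA6 is a zinc finger factor of early endoderm, lung and gut, and CDX2 is the homeobox factor that specifies intestinal epithelium. In lung epithelium FOXA1, FOXA2 and GATA6 are the usual members of this set, whereas HNF4A, HNF4G and CDX2 are better known from gut-type tissue.

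Library depth ranged from 32436524 to 43044456 counts. AKR1B1 averaged 153.8 ± 11.7 CPM in shAKR1B1, 1063 ± 103.0 CPM in shSORD and 1416.1 ± 34.7 CPM in plko (SD, n = 3 each), where CPM is counts per 1e6 of the scaled library size. SORD averaged 30.5 ± 0.411 CPM in shAKR1B1, 8.62 ± 0.414 CPM in shSORD and 42.9 ± 1.19 CPM in plko. In each knockdown the RNA of the target was thus lower than in plko and, by less, so was that of the other enzyme. The cause of the smaller difference was not tested. The 8 epithelial markers (keratins, cadherin 1, EPCAM and claudins) summed to 12320.4 to 12945 CPM in shAKR1B1, 10755.8 to 12806.9 CPM in shSORD and 8688.5 to 8911 CPM in plko. Alveolar markers summed to 54.1 to 57.7 CPM in shAKR1B1, 64.6 to 78.2 CPM in shSORD and 59.7 to 59.9 CPM in plko over 8 genes, nearly all of it the lipid transporter ABCA3 (50.1 ± 1.68 CPM in shAKR1B1, 66.0 ± 7.54 CPM in shSORD and 55.2 ± 0.369 CPM in plko). Of the surfactant proteins, SFTPC averaged 0.16 CPM in shAKR1B1, 0.344 CPM in shSORD and 0.258 CPM in plko, SFTPA1 and SFTPA2 were at or near 0, SFTPB had no count in any library, and NKX2-1, the defining factor of lung epithelium, had 0 to 4 counts per library. The 8 fibroblast markers, mostly COL1A1, summed to 9.23 to 10.7 CPM in shAKR1B1, 35.4 to 56.9 CPM in shSORD and 16.2 to 17.8 CPM in plko. Summed leukocyte markers, with CD3E, CD3D and MS4A1 at 0 counts, lay between 9.33 and 12.2 CPM in every library, and endothelial markers, with CLDN5 at 0, between 0.0509 and 0.311 CPM. The epithelial sum, mostly KRT8 and KRT18, was higher in both knockdowns, as were HNF4A, HNF4G, FOXA1 and GATA6, while KRT7, the next most abundant of the list, was lower in both (1189.1 ± 55.1 CPM in shAKR1B1, 1744.4 ± 208.0 CPM in shSORD and 2014.7 ± 36.9 CPM in plko), and the fibroblast sum was higher in shSORD; their part in the results below was not tested.

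RefSeq start-site windows of HNF4A, FOXA1 and NR5A2 are shown because they are the more abundant factors with a window and their knockdown libraries all lay apart from plko, and that of F10, an HNF4A target described below, because it holds an HNF4 motif at its start. The table of windows, 250 bases before to 50 bases after each start on GRCh38.p14, held 6 of the 8 symbols; FOXA2 and HNF4G had none. The counts were made on GRCh37, so these coordinates belong to the RefSeq table alone. HNF4A has 2 starts 45540 bases apart, at chr20:44355449-44355748 and chr20:44400989-44401288, both on the plus strand, and the 2 NR5A2 starts lie 14881 bases apart on the plus strand, of which the downstream one, chr1:200042341-200042640, is shown. The FOXA1 window is chr14:37595200-37595499 on the minus strand and the F10 window chr13:113122549-113122848 on the plus strand. Capitals mark the matches to the motifs named in the next paragraph.
HNF4A, upstream start: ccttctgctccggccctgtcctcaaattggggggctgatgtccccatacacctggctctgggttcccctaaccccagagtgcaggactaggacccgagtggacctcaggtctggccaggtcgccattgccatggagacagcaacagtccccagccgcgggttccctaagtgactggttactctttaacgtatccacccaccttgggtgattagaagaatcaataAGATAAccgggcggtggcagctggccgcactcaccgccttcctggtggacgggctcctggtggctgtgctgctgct
HNF4A, downstream start: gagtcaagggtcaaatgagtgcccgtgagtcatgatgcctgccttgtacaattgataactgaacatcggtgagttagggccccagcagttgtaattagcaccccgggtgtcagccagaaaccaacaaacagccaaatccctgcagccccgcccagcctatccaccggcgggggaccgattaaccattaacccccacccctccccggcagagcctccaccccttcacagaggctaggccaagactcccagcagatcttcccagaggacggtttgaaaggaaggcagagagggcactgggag
FOXA1: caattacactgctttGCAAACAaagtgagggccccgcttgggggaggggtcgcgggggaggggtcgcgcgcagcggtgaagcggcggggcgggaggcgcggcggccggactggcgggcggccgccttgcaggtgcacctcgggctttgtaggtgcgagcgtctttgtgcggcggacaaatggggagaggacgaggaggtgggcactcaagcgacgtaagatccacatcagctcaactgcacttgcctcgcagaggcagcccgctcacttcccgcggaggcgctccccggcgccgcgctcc
NR5A2, downstream start: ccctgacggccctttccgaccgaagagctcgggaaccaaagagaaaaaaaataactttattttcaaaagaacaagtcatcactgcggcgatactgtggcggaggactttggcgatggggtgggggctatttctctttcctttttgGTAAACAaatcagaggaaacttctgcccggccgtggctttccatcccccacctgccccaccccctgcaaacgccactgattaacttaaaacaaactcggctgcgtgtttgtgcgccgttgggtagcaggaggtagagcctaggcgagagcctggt
F10: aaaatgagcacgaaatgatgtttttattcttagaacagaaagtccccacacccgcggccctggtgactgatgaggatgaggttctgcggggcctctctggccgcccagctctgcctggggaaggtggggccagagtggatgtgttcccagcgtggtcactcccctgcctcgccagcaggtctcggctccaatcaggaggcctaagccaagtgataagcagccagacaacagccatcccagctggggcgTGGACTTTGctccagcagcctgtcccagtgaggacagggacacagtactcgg

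Each window was searched on both strands for the letters of 5 motifs. HNF4 was searched as CAAAGTCCA, CAAAGTTCA, CAAAGGTCA or CAAAGGCCA, and NR5A2 as CAAGGTCA. The forkhead forms were TGTTTAC and, with other bases inside, TATTTAC as well as the form TGTTTGC. The GATA motif was searched as AGATAA, and CDX2 as TTTATGG and as its variant TTTATTG. In 35116 RefSeq windows of 300 bases, 1.54% held an HNF4 form, 9.57% a FOXA form, 10.3% GATA, 1.28% NR5A2 and 6.35% CDX2. The upstream HNF4A window held a GATA match beginning 26 bases before the start, and the downstream one held none of the 5. FOXA1 held a FOXA match (GCAAACA on the printed strand) beginning 235 bases before its start, and the printed NR5A2 window a FOXA match (GTAAACA) beginning 105 bases before. The other NR5A2 window held GATA matches beginning 237 and 220 bases before the start. In the CDX2 window FOXA, GATA and CDX2 matches began 13, 119 and 181 bases before the start, and in the windows of FOXA3 and GATA6 there was none. F10 held an HNF4 match (TGGACTTTG) that begins 2 bases before the start and runs across it. The windows of TM4SF20, F7 and FGB, other listed HNF4A targets described below, were searched as well and held none of the HNF4 forms searched. A search for exact letters misses sites spelled otherwise, so a window without a match may still hold a site. No match named here overlapped another. A match describes letters alone, since binding was not measured.

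HNF4A (ENSG00000101076) was the most abundant HNF factor and was higher in both knockdowns. It stood at 92.6, 92.6 and 97.0 CPM in the shAKR1B1 libraries, at 88.0, 89.7 and 82.0 CPM in shSORD and at 35.1, 33.7 and 35.1 CPM in plko. All 6 knockdown libraries lay above all 3 plko libraries, and the shAKR1B1 libraries lay above those of shSORD by a narrow margin. The fitted difference was 2.72-fold for shAKR1B1 (log2 fold change 1.44, SE 0.0573) and 2.5-fold for shSORD (1.32, SE 0.0573) against plko. Between the knockdowns it was 1.09-fold (0.12, SE 0.055). These values rest on 3022 to 4183 counts per shAKR1B1 library, 3268 to 3678 per shSORD library and 1270 to 1380 per plko library. Counts are per gene, so the upstream and downstream starts shown above cannot be told apart, and in bulk RNA neither can fewer cells expressing a gene and less RNA per cell. The antisense gene HNF4A-AS1 had at most 4 counts in any library.

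HNF4G (ENSG00000164749), the paralog of HNF4A that is prominent in gut, had the largest fold difference of the 8 against plko. Its levels were 8.09, 8.24 and 9.12 CPM in shAKR1B1, 4.61, 3.85 and 4.69 CPM in shSORD and 1.27, 1.22 and 1.32 CPM in plko. The 3 groups did not overlap. Against plko it was 6.66-fold higher in shAKR1B1 (log2 fold change 2.74, SE 0.125) and 3.44-fold higher in shSORD (1.78, SE 0.133). Between knockdowns the fold was 1.94 (0.95, SE 0.104). The shAKR1B1 libraries held 264 to 393 counts of it, the shSORD libraries 158 to 187 and the plko libraries 46 to 52. Within each library HNF4A outnumbered HNF4G per exon length by 7.52, 7.39 and 7 times in shAKR1B1, 12.5, 15.3 and 11.5 times in shSORD and 18.1, 18.1 and 17.4 times in plko. The pair therefore kept its order in all 9 libraries, with the smallest gap in shAKR1B1.

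**Figure D1:**
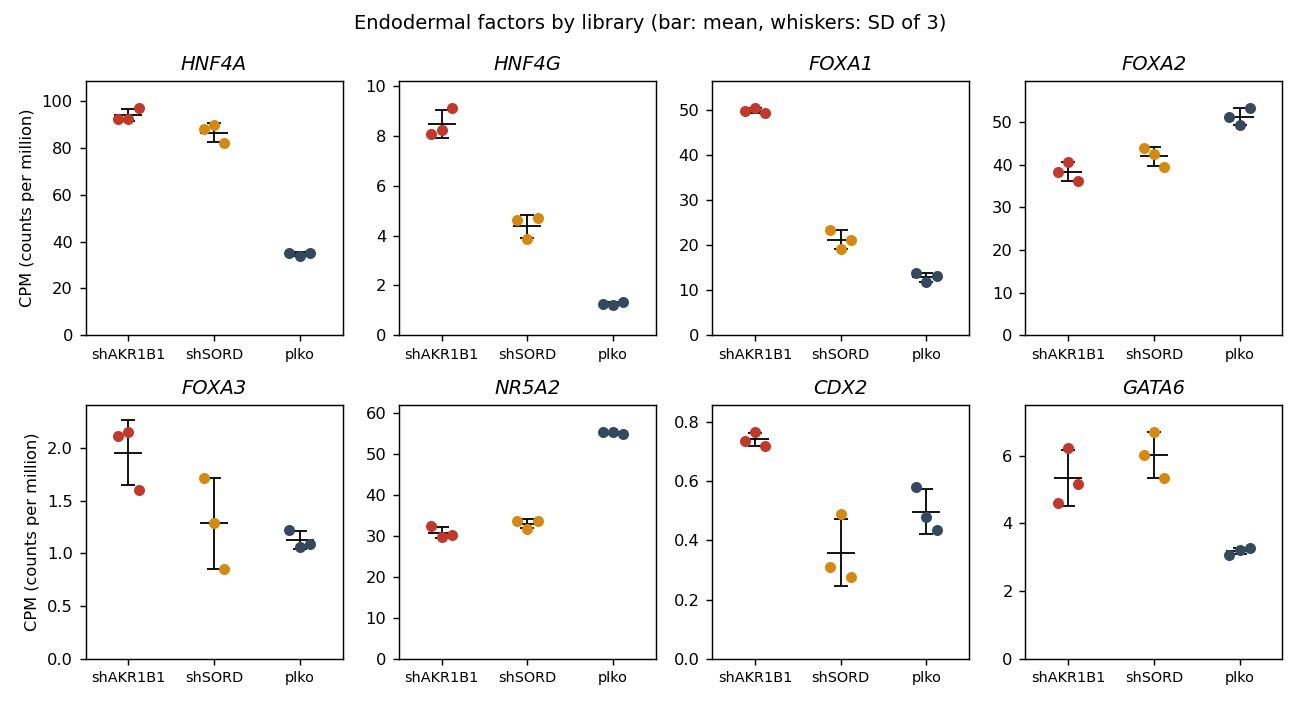
Level of each of the 8 factors, in CPM on a linear axis from 0, by library in shAKR1B1, shSORD and plko; dots are libraries, horizontal lines the group mean and whiskers the SD of 3. HNF4A, at 94.1 ± 2.57 CPM in shAKR1B1, 86.5 ± 4.05 CPM in shSORD and 34.6 ± 0.819 CPM in plko, HNF4G and FOXA1 have groups that do not overlap, while FOXA2 and NR5A2 are highest in plko.

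Among the forkhead factors, FOXA1 and FOXA2 differed in opposite directions. FOXA1 (ENSG00000129514) stood at 49.7, 50.3 and 49.2 CPM in shAKR1B1, 23.4, 19.1 and 21.0 CPM in shSORD and 13.8, 11.8 and 13.0 CPM in plko. The groups were in that order without overlap, and the shAKR1B1 libraries lay very close to each other. FOXA1 was 3.87-fold higher in shAKR1B1 than in plko (log2 fold change 1.95, SE 0.0818), 1.65-fold higher in shSORD than in plko (0.72, SE 0.0831) and 2.35-fold higher in shAKR1B1 than in shSORD (1.23, SE 0.0782). FOXA2 (ENSG00000125798), which is essential for foregut endoderm, stood at 38.3, 40.7 and 36.3 CPM in shAKR1B1, 44.0, 42.5 and 39.4 CPM in shSORD and 51.2, 49.4 and 53.3 CPM in plko. Both knockdowns lay below plko in every library and overlapped each other. The differences were small, 1.34-fold lower in shAKR1B1 (log2 fold change -0.42, SE 0.066) and 1.22-fold lower in shSORD (-0.29, SE 0.0657) than in plko, and -0.13 (SE 0.0662) between the knockdowns. FOXA3 (ENSG00000170608), the family member best known from liver, was scarce at 34 to 87 counts in any library. It stood at 2.11, 2.15 and 1.6 CPM in shAKR1B1, 1.71, 1.29 and 0.853 CPM in shSORD and 1.22, 1.06 and 1.09 CPM in plko. The shAKR1B1 libraries lay above plko, by 1.73-fold (log2 fold change 0.79, SE 0.221), and shSORD overlapped both other groups. Its shSORD difference from plko, 0.19 (SE 0.233), changed sign to -0.05 when shSORD replicate 1 was left out. Its difference between the knockdowns, 0.6 (SE 0.214), was 0.37 without shSORD replicate 3.

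Per exon length, the balance of FOXA1 to FOXA2 differed widely between groups. FOXA1 had 0.849, 0.807 and 0.886 times the level of FOXA2 in shAKR1B1, 0.348, 0.294 and 0.348 times in shSORD and 0.176, 0.156 and 0.159 times in plko. FOXA2 was thus the more abundant of the pair in all 9 libraries, but in shAKR1B1 the 2 were nearly level. FOXA2 exceeded FOXA3 by 16.8 ± 2.05 times in shAKR1B1, 29.4 ± 8.73 times in shSORD and 38.6 ± 2.84 times in plko.

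NR5A2 (ENSG00000116833) was lower in both knockdowns. Its levels were 32.3, 29.6 and 30.3 CPM in shAKR1B1, 33.5, 31.6 and 33.6 CPM in shSORD and 55.3, 55.2 and 54.8 CPM in plko. The knockdown libraries lay far below plko and overlapped each other. NR5A2 was 1.79-fold lower in shAKR1B1 (log2 fold change -0.84, SE 0.0598) and 1.67-fold lower in shSORD (-0.74, SE 0.0595) than in plko, from 1055 to 2154 counts per library. Between the knockdowns the difference was -0.1 (SE 0.0604). Per exon length HNF4A stood at 3.17 ± 0.185 times NR5A2 in shAKR1B1, 2.72 ± 0.208 times in shSORD and 0.65 ± 0.0165 times in plko (SD, n = 3 each), so the order of these 2 nuclear receptors was the reverse in the knockdowns of that in plko.

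GATA6 (ENSG00000141448) was low but higher in both knockdowns. It stood at 4.59, 6.22 and 5.17 CPM in shAKR1B1, 6.01, 6.7 and 5.34 CPM in shSORD and 3.07, 3.21 and 3.26 CPM in plko. Every knockdown library lay above every plko library, and the knockdowns overlapped. GATA6 was 1.68-fold higher in shAKR1B1 (log2 fold change 0.75, SE 0.131) and 1.89-fold higher in shSORD (0.92, SE 0.129) than in plko, with -0.17 (SE 0.121) between the knockdowns. CDX2 (ENSG00000165556) was the scarcest of the 8, at 11 to 31 counts per library. Its levels were 0.735, 0.765 and 0.719 CPM in shAKR1B1, 0.311, 0.488 and 0.276 CPM in shSORD and 0.58, 0.477 and 0.433 CPM in plko. The shAKR1B1 libraries lay above both other groups, which overlapped. The log2 fold change of CDX2 was 0.58 (SE 0.253) for shAKR1B1 against plko, -0.46 (SE 0.287) for shSORD against plko and 1.03 (SE 0.265) for shAKR1B1 against shSORD.

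**Figure D2:**
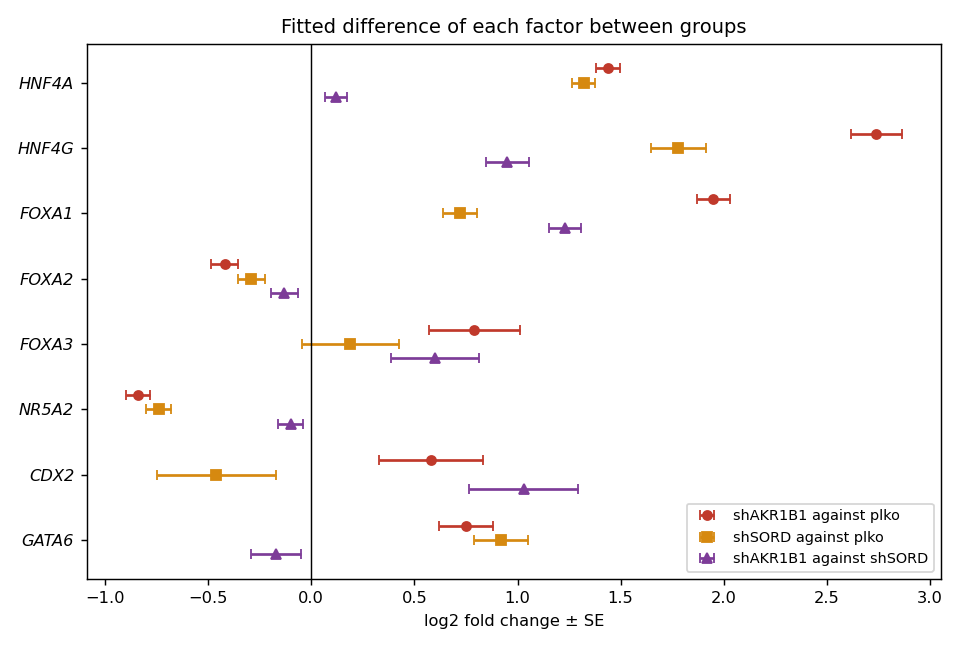
Fitted log2 fold change of each factor with its standard error, for shAKR1B1 against plko, shSORD against plko and shAKR1B1 against shSORD, from 3 libraries per group. For shAKR1B1 against plko HNF4G and FOXA1 have the largest values, 2.74 and 1.95, and FOXA2 and NR5A2 lie below 0 in both knockdowns.

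The 8 factors were set against all genes by their libraries alone, as a description from which nothing is read, since the genes were chosen on these values. Of the 8, 6 lay wholly above plko and 2 wholly below in shAKR1B1, beside 69.1% of all genes without overlap, 33.5% above and 35.7% below; in shSORD 4 lay above and 2 below, beside 60.1%, 29.1% above and 31.0% below; and 4 lay higher in shAKR1B1 than in shSORD without overlap and 0 lower, beside 40.1%, 20.0% above and 20.1% below. The 2 comparisons with plko share its 3 libraries. Across the 8, the median log2 fold change was 0.77 for shAKR1B1 against plko, 0.46 for shSORD against plko and 0.36 between the knockdowns, while the median over all tested genes was within 0.01 of 0.

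Levels of different genes were compared as RPKM, the CPM per kilobase of annotated exon. In shAKR1B1 the order was FOXA2 (14.8 ± 0.847), HNF4A (12.9 ± 0.352), FOXA1 (12.5 ± 0.134), NR5A2 (4.06 ± 0.189), HNF4G (1.76 ± 0.116), GATA6 (1.35 ± 0.208), FOXA3 (0.891 ± 0.14) and CDX2 (0.179 ± 0.00561 RPKM; SD, n = 3). The shSORD order was FOXA2 (16.1 ± 0.912), HNF4A (11.8 ± 0.554), FOXA1 (5.32 ± 0.541), NR5A2 (4.35 ± 0.152), GATA6 (1.53 ± 0.173), HNF4G (0.912 ± 0.0962), FOXA3 (0.586 ± 0.195) and CDX2 (0.0869 ± 0.0275 RPKM). In plko it was FOXA2 (19.7 ± 0.752), NR5A2 (7.29 ± 0.0308), HNF4A (4.74 ± 0.112), FOXA1 (3.23 ± 0.254), GATA6 (0.805 ± 0.0253), FOXA3 (0.512 ± 0.0371), HNF4G (0.264 ± 0.0108) and CDX2 (0.12 ± 0.0183 RPKM). FOXA2 led and CDX2 came last in all 3 groups. HNF4A and FOXA1 in shAKR1B1 differed by 0.385 RPKM, less than their SDs added together (0.486); the other neighbours in each order differed by more than their added SDs. These levels rest on the joined length of all annotated exons of a gene, which can exceed that of the transcripts made.

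As a share of the 8 factors' counts per exon length, FOXA2 made up 30.5 ± 1.24% in shAKR1B1, 39.6 ± 0.566% in shSORD and 53.8 ± 0.755% in plko. HNF4A made up 26.6 ± 1.1% in shAKR1B1, 29.1 ± 0.93% in shSORD and 12.9 ± 0.0975% in plko. For FOXA1 the share was 25.8 ± 0.183% in shAKR1B1, 13.0 ± 1.11% in shSORD and 8.8 ± 0.523% in plko. FOXA2 was the larger part of the set in plko, while HNF4A, FOXA1 and FOXA2 had similar shares in shAKR1B1. NR5A2 made up 8.41 ± 0.478% in shAKR1B1, 10.7 ± 0.653% in shSORD and 19.9 ± 0.616% in plko.

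**Figure D3:**
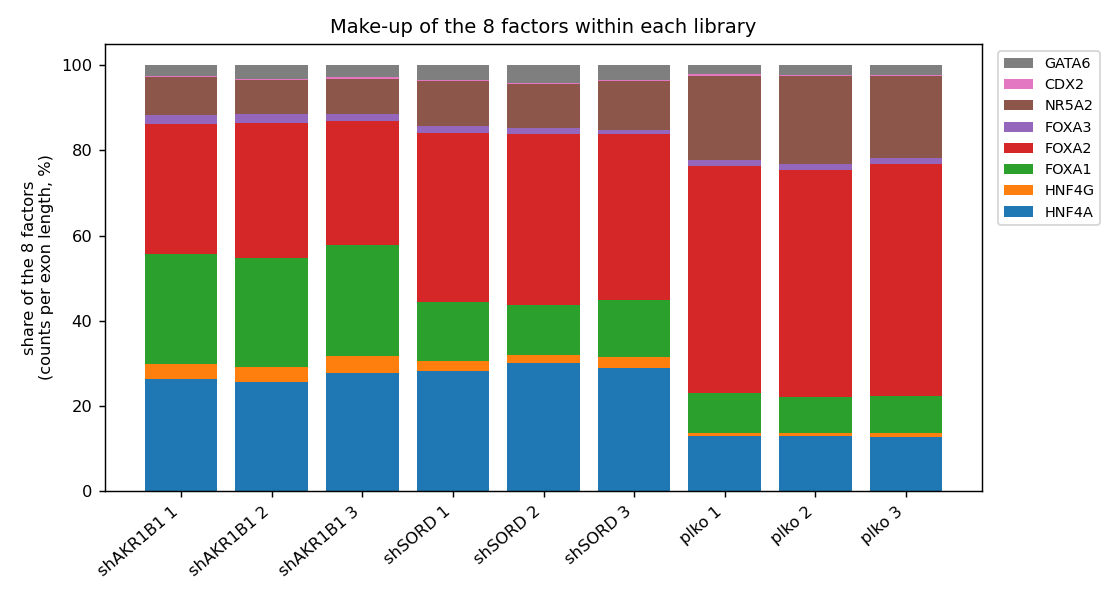
Share of each factor in the counts per exon length of all 8, in percent, with a stacked column per library for shAKR1B1, shSORD and plko. FOXA2 takes 29.2 to 31.7% in shAKR1B1, against 53.2 to 54.6% in plko, and FOXA1 takes 25.6 to 25.9% in shAKR1B1, against 8.33 to 9.36% in plko.

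The relatives and neighbours of the 8 did not all differ. GATA4, which acts with GATA6 in endoderm, averaged 4.15 ± 0.25 CPM in shAKR1B1, 4.09 ± 0.942 CPM in shSORD and 4.25 ± 0.468 CPM in plko. Its log2 fold changes, -0.03 (SE 0.148, edgeR adjusted p = 0.868) with shAKR1B1 and -0.05 (SE 0.148, adjusted p = 0.785) with shSORD, did not reach the adjusted p under 0.05 used for calls and changed sign under other settings. GATA6-AS1, transcribed opposite GATA6, had 35 counts summed over shAKR1B1 and 39 over shSORD against 4 over plko. The scaled ratios to plko were 8.52 in shAKR1B1 (95% exact interval 3.05 to 33.0) and 9.24 in shSORD (3.33 to 35.6), and the intervals cover counting error only. The strand setting of the counting is not given in the sources used here, so reads of overlapping sense and antisense genes may be mixed. LINC00261, the long noncoding RNA next to FOXA2, averaged 4.64 ± 0.646 CPM in shAKR1B1, 3.76 ± 0.191 CPM in shSORD and 4.13 ± 0.422 CPM in plko. It passed no test (edgeR adjusted p = 0.294 for shAKR1B1 and 0.381 for shSORD against plko). CDX1, the intestinal partner of CDX2, had 0 counts in all 9 libraries, which allows 0.0696 to 0.0919 CPM per library at a floor of 3 counts.

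Against plko, other endodermal factors were called about as often as all genes. Calls here are at an adjusted p under 0.05 (edgeR, Benjamini-Hochberg), which 57.4% of all tested genes reached for shAKR1B1 against plko (27.8% higher, 29.6% lower), 56.5% for shSORD against plko (27.5% higher, 29.0% lower) and 30.7% for shAKR1B1 against shSORD (15.5% higher, 15.1% lower). The list has 39 entries, of which 24 were tested. With shAKR1B1 11 rose and 3 fell against plko (median log2 fold change of the 24, 0.38), and with shSORD 10 rose and 4 fell (median 0.3). In each, 14 of 24 were called, a share near that of all genes. In shAKR1B1 against shSORD 10 were higher and 4 lower (median 0.02). These 14 of 24 are a larger share than the 30.7% of all genes, given as a description since the list was chosen with earlier results known. NR1H4, the bile acid receptor, averaged 5.15 ± 0.193 CPM in shAKR1B1, 3.85 ± 0.355 CPM in shSORD and 1.24 ± 0.132 CPM in plko (log2 fold changes 2.05 with shAKR1B1 and 1.63 with shSORD, edgeR adjusted p = 7.64e-09 and 1.51e-07). ONECUT2, a cut-homeobox factor of liver and pancreas, averaged 24.4 ± 1.21 CPM in shAKR1B1, 16.1 ± 1.72 CPM in shSORD and 8.92 ± 0.374 CPM in plko (1.45 with shAKR1B1 and 0.85 with shSORD, edgeR adjusted p = 2.75e-09 and 1.08e-06). SOX2, a foregut and airway factor, averaged 4.39 ± 0.422 CPM in shAKR1B1, 2.78 ± 0.201 CPM in shSORD and 1.31 ± 0.164 CPM in plko (1.75 with shAKR1B1 and 1.08 with shSORD, edgeR adjusted p = 8.17e-08 and 2.18e-05). BARX1, which specifies stomach mesenchyme, fell: it averaged 1.28 ± 0.109 CPM in shAKR1B1, 2.36 ± 0.298 CPM in shSORD and 3.64 ± 0.283 CPM in plko (-1.49 with shAKR1B1 and -0.62 with shSORD, edgeR adjusted p = 5.95e-07 and 0.001). NR1H4, ONECUT2 and SOX2 thus rose, and BARX1 fell, in both knockdowns.

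Partners and coregulators of the 8 include genes that rose and genes that fell. Of 27 tested, 10 rose and 11 fell with shAKR1B1 (median 0.00) and 7 rose and 13 fell with shSORD (median -0.12). The 21 called with shAKR1B1 and 20 with shSORD are a larger share than the 57.4% and 56.5% of all genes called. All 27 had a mean of at least 50 counts, which some of the other tested genes did not. Whether this bears on the larger share was not tested. PPARA, the fatty acid receptor of liver, averaged 22.6 ± 1.07 CPM in shAKR1B1, 18.8 ± 2.67 CPM in shSORD and 7.89 ± 0.258 CPM in plko (log2 fold changes 1.52 with shAKR1B1 and 1.25 with shSORD, edgeR adjusted p = 6.16e-09 and 7.23e-08). PPARG, the adipogenic receptor of the same family, averaged 20.0 ± 0.806 CPM in shAKR1B1, 26.7 ± 0.658 CPM in shSORD and 43.0 ± 2.05 CPM in plko (-1.11 with shAKR1B1 and -0.69 with shSORD, edgeR adjusted p = 2.52e-09 and 4.13e-07). TLE1, a Groucho-type corepressor that FOXA proteins can recruit, averaged 48.8 ± 0.467 CPM in shAKR1B1, 59.1 ± 1.2 CPM in shSORD and 98.8 ± 1.45 CPM in plko (-1.02 with shAKR1B1 and -0.74 with shSORD, edgeR adjusted p = 5.22e-10 and 2.09e-08). So PPARA rose, and PPARG and TLE1 fell, in both knockdowns. SIRT1, a deacetylase, averaged 28.8 ± 0.215 CPM in shAKR1B1, 27.9 ± 2.18 CPM in shSORD and 46.2 ± 0.914 CPM in plko (-0.68 with shAKR1B1 and -0.73 with shSORD, edgeR adjusted p = 5.27e-07 and 3.25e-07). NR2F1, an orphan receptor that competes for HNF4 sites, averaged 20.6 ± 0.731 CPM in shAKR1B1, 10.3 ± 0.712 CPM in shSORD and 12.2 ± 0.52 CPM in plko. It rose with shAKR1B1 (0.75, edgeR adjusted p = 6.58e-07). With shSORD it fell (-0.25, adjusted p = 0.0142), but that call was lost under 4 other settings: the edgeR adjusted p was 0.0581 without plko replicate 2, 0.0605 without shSORD replicate 3, 0.0659 with total counts as the scale and 0.0509 in a fit of only these groups.

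The genes listed as HNF4A targets were mostly higher. That list was chosen with earlier results of these data known, so its counts and medians are a description and no test of HNF4A activity. Of 48 listed, 27 were tested and 21 lay under the filter, among them the apolipoprotein genes APOA1, APOB and APOC3. With shAKR1B1 24 rose and 1 fell against plko, with a median log2 fold change of 2.8, and with shSORD 22 rose and 1 fell, with a median of 1.85. Over all tested genes 57.4% and 56.5% were called in these comparisons and the medians lay within 0.01 of 0. VIL1 is counted here and among the CDX2 targets. The gene that fell in both was ACOX2, a peroxisomal oxidase of bile acid synthesis. Some listed genes, F10 among them, passed the filter only through their knockdown counts and so had to differ. Of the 21 with at least 10 counts in every plko library, a limit chosen after the data were seen, 19 rose and 1 fell with shAKR1B1 (median 2.8) and 17 rose and 1 fell with shSORD (median 1.85). In shAKR1B1 against shSORD 20 were higher and 3 lower of 27, with a median of 0.57. Over all tested genes 30.7% were called in that comparison, 15.5% higher and 15.1% lower. The limit of 10 counts in every plko library was not applied to it.

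TM4SF20, an intestinal tetraspan membrane protein, had the largest fold of the named targets with shAKR1B1. It averaged 212.7 ± 22.8 CPM in shAKR1B1, 132.9 ± 24.0 CPM in shSORD and 12.1 ± 0.341 CPM in plko, a rise of 17.6-fold with shAKR1B1 and 11.0-fold with shSORD (log2 fold changes 4.14 with shAKR1B1 and 3.46 with shSORD, edgeR adjusted p = 1.78e-12 and 2.11e-11). FGB, the fibrinogen beta chain made by liver, averaged 346.3 ± 41.4 CPM in shAKR1B1, 235.7 ± 29.2 CPM in shSORD and 29.6 ± 0.338 CPM in plko (3.55 with shAKR1B1 and 3.0 with shSORD, edgeR adjusted p = 1.04e-12 and 1.01e-11). Coagulation factor F7 averaged 5.27 ± 0.397 CPM in shAKR1B1, 3.6 ± 0.877 CPM in shSORD and 0.345 ± 0.0751 CPM in plko (3.92 with shAKR1B1 and 3.37 with shSORD, edgeR adjusted p = 2.1e-09 and 2.38e-08). These 3 rose in both knockdowns, and TM4SF20 (0.68, edgeR adjusted p = 0.000135) and FGB (0.55, adjusted p = 0.000192) were also higher in shAKR1B1 than in shSORD. F10, the clotting factor whose start-site window with an HNF4 match is printed above, averaged 1.6 ± 0.226 CPM in shAKR1B1, 2.24 ± 0.623 CPM in shSORD and 0.123 ± 0.0387 CPM in plko. With 3 to 6 counts per plko library, F10 entered the fit only through the knockdowns. It was also named for its large fold, so its values are given without a test or interval. The scaled ratio of summed counts to plko was 12.8 in shAKR1B1 and 18.1 in shSORD. VIL1, the actin-bundling protein of the brush border, averaged 31.8 ± 2.53 CPM in shAKR1B1, 23.1 ± 1.69 CPM in shSORD and 2.92 ± 0.254 CPM in plko (3.44 with shAKR1B1 and 2.99 with shSORD, edgeR adjusted p = 1.39e-12 and 1.58e-11).

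**Figure D4:**
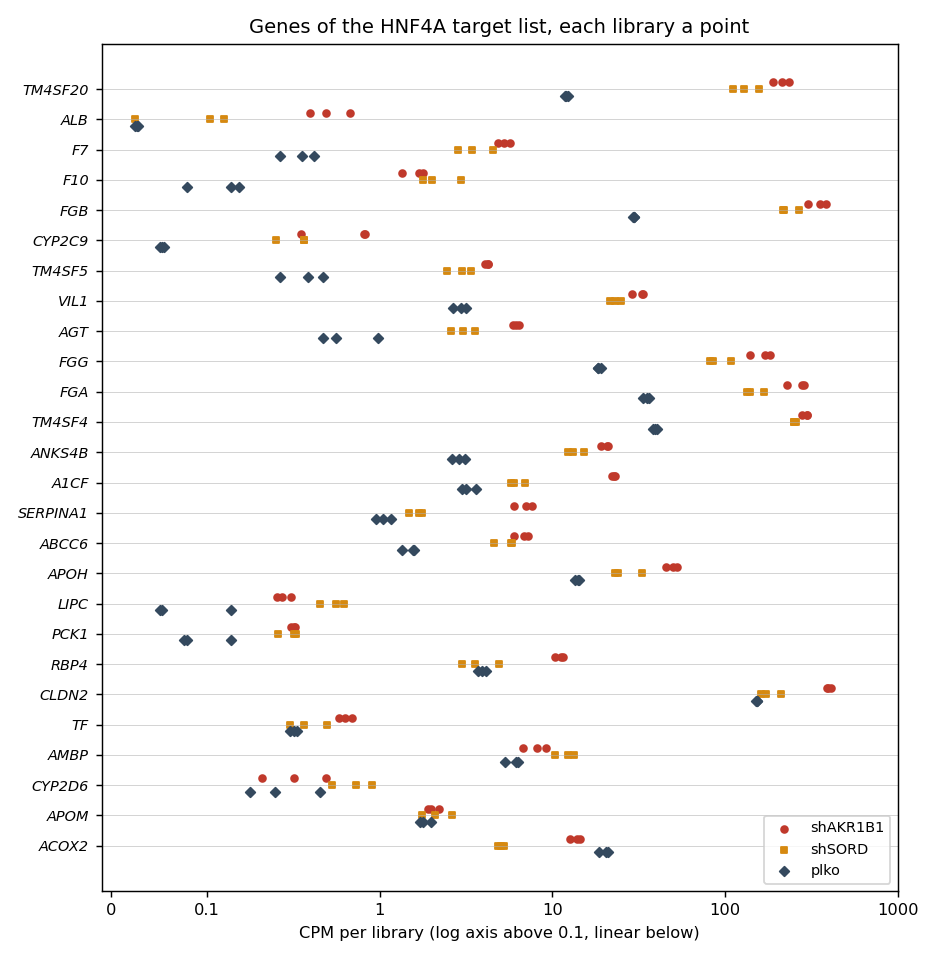
CPM per library of all but 1 of the 27 tested genes of the HNF4A target list, on an axis that is logarithmic above 0.1 and linear below; red circles are shAKR1B1, orange squares shSORD and dark diamonds plko. Most genes have both knockdowns to the right of plko, and ACOX2 in the bottom row has both to the left.

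Known targets of NR5A2, CDX2 and GATA6 moved in both directions. The list pools targets of factors that themselves differed in direction, so its counts and medians describe none of these factors alone. Of 34 listed, 17 were tested, and 57.4% (shAKR1B1) and 56.5% (shSORD) of all genes were called against plko. With shAKR1B1 10 rose and 5 fell (median log2 fold change 0.74) and with shSORD 7 rose and 5 fell (median 0.2). Of the 14 with at least 10 counts in every plko library, 8 rose and 5 fell with shAKR1B1 (median 0.46) and 6 rose and 5 fell with shSORD (median 0.09). CDH17, an intestinal cadherin and CDX2 target, averaged 70.3 ± 5.21 CPM in shAKR1B1, 59.0 ± 8.19 CPM in shSORD and 6.6 ± 0.585 CPM in plko (3.41 with shAKR1B1 and 3.16 with shSORD, edgeR adjusted p = 3.58e-12 and 1.66e-11). It rose in both knockdowns. CDX2 itself stood at 0.74 ± 0.0231 CPM in shAKR1B1, 0.358 ± 0.114 CPM in shSORD and 0.497 ± 0.0755 CPM in plko. KRT20, a keratin of mature gut epithelium, averaged 5.34 ± 0.515 CPM in shAKR1B1, 1.04 ± 0.165 CPM in shSORD and 0.908 ± 0.277 CPM in plko. It rose with shAKR1B1 (2.55, edgeR adjusted p = 2.31e-08) and did not pass with shSORD (0.2, adjusted p = 0.477); between the knockdowns the difference was 2.35 (adjusted p = 1.31e-07). LGALS4, an intestinal galectin, averaged 3.25 ± 0.342 CPM in shAKR1B1, 1.8 ± 0.194 CPM in shSORD and 0.751 ± 0.193 CPM in plko (2.1 with shAKR1B1 and 1.26 with shSORD, edgeR adjusted p = 2.05e-07 and 8.11e-05). DAB2, an endocytic adaptor and GATA6 target, averaged 35.1 ± 1.26 CPM in shAKR1B1, 31.1 ± 0.821 CPM in shSORD and 14.7 ± 0.609 CPM in plko (1.26 with shAKR1B1 and 1.08 with shSORD, edgeR adjusted p = 6.48e-10 and 5.1e-09). Among the targets that fell, EPHB2, a receptor tyrosine kinase of intestinal crypts, averaged 28.3 ± 1.74 CPM in shAKR1B1, 53.5 ± 3.4 CPM in shSORD and 101.9 ± 1.49 CPM in plko (-1.85 with shAKR1B1 and -0.93 with shSORD, edgeR adjusted p = 1.29e-11 and 1.77e-08). BMP2, a bone morphogenetic protein, averaged 0.301 ± 0.102 CPM in shAKR1B1, 0.642 ± 0.164 CPM in shSORD and 1.02 ± 0.0862 CPM in plko (-1.72 with shAKR1B1 and -0.67 with shSORD, edgeR adjusted p = 9.72e-05 and 0.0296). These BMP2 values rest on 6 to 44 counts per library. The bile acid enzymes CYP7A1 and CYP8B1, classical NR5A2 targets, had at most 1 count in any library.

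**Figure D5:**
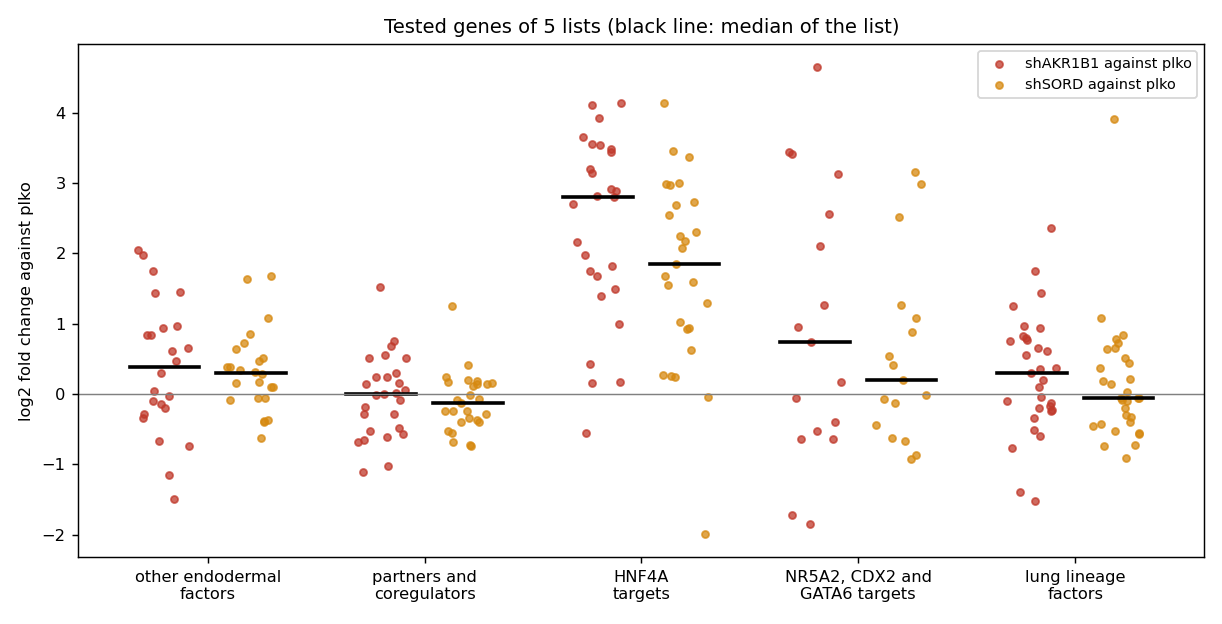
Log2 fold change against plko of the tested genes of 5 lists, for shAKR1B1 (left cloud of each pair) and shSORD (right cloud); each dot is a gene and the black line the list's median. The HNF4A targets have medians of 2.8 with shAKR1B1 and 1.85 with shSORD, and the medians of the other lists lie between -0.12 and 0.74.

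Among 13221 genes with a mean of at least 50 counts, the ones whose levels followed each factor most closely over the 9 libraries were named by Pearson correlation of log2(CPM + 1). The 9 libraries are 3 groups, so a high correlation mostly repeats the order of the groups, and no p is given. HNF4A was followed by USH1C (r = 0.999), the harmonin scaffold of hair cells and brush border, and by the RNA-binding gene RBPMS (r = 0.9983). USH1C averaged 78.0 ± 1.7 CPM in shAKR1B1, 67.3 ± 4.69 CPM in shSORD and 12.7 ± 0.238 CPM in plko. Closest to HNF4G were SLC17A1 (r = 0.9968), a phosphate and urate transporter, and B4GALT4 (r = 0.9956), a galactosyltransferase. FOXA1 was closest to AGMAT (r = 0.9976), a ureohydrolase, and to UGT1A6 (r = 0.997), a glucuronosyltransferase whose locus shares exons with its neighbours, which makes its counts uncertain. NR5A2 was followed by NNMT (r = 0.9962), which methylates nicotinamide, and CDCP1 (r = 0.9956), a transmembrane Src substrate. NNMT averaged 26.5 ± 1.24 CPM in shAKR1B1, 29.8 ± 0.309 CPM in shSORD and 78.0 ± 1.18 CPM in plko. For FOXA2 the closest were TRIM27 (r = 0.9789) and CSF1 (r = 0.9772), for FOXA3 EBF4 (r = 0.9741) and SERINC5 (r = 0.9739), and for GATA6 KCNC4 (r = 0.9897) and HDAC6 (r = 0.987). CDX2 lay below 50 mean counts. Among the 8 themselves, r was 0.94 for HNF4A with HNF4G and -0.86 for FOXA1 with FOXA2.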

How the data were processed

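RNA of 9 A549 libraries was sequenced from poly(A)-selected, strand-marked libraries (TruSeq stranded mRNA), per the labels' protocols. The deposited table holds the authors' whole-number counts per Ensembl gene, without normalization. The submitters' processing notes name GRCh37, DESeq2 1.12.3, featureCounts 1.5.1 (Subread), STAR 2.5.2b and cutadapt 1.9.1. Not given in the sources used here are the annotation release, the strand setting and how multiply mapped reads were handled.

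Counts were scaled by TMM and tested with edgeR 4.0.16 in R 4.3.3: default filter by group, quasi-likelihood fit of 1 mean per group over all 9 libraries, prior count 0.125, Benjamini-Hochberg adjustment over 16916 genes, called at an adjusted p under 0.05. The fit put the common biological coefficient of variation at 6.59%, and standard errors are the absolute log2 fold change over the square root of F. DESeq2 1.42.0, other scalings and filters, fits of only 2 groups, a replicate block and leaving out each library were alternatives.

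A table of IDs and symbols matched 51996 of 57905 IDs. NR5A2-AS1, FOXA3P and CDX2-AS1 matched none and were not analysed here. Some listed genes are counted with their list but not reported by name here. Exon lengths came from GENCODE 29, on another build, with no coordinates used. The 8 factors, the lists and the tests were chosen with earlier results of these data known. Apart from the factors, both targets and fixed relatives, named genes were up to 4 called genes of a list with the largest absolute log2 fold change in each knockdown, at a mean of at least 50 counts and without overlap of libraries, and the 2 genes that followed each factor most closely. APOA1, APOB, APOC3, ACOX2, EPHB2, BMP2, CYP7A1, CYP8B1, HNF4A-AS1 and the marker genes were named after their values were seen.

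Samples of shAKR1B1 and shSORD with the same replicate number deviated together from their group means (r = 0.287, 0.409 and 0.278, over genes with a mean of at least 50 counts). The numbers were therefore taken to pair them. The reported fit has no block, so its p-values and standard errors between the knockdowns ignore this pairing. With a replicate block 5643 genes were called between the knockdowns, against 5186 without. Values of single genes between the knockdowns with a block are not given here.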

Additional observations from a re-analysis of the deposited data

How the results depend on the processing

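Across 16 other settings, 924 values of named genes other than the 8 factors were recomputed: 910 kept direction and side of the threshold, 4 lost a call (NR2F1 with shSORD), 0 gained one and 10 changed sign. Calls are not given for the 8 factors, so for them only the sign was compared, and it changed in 1 of 381 values. The 21 counts of called genes all stayed within 1.5 times. In shSORD against plko, leaving out 1 library moved FOXA3 between -0.05 (without shSORD replicate 1) and 0.43, KRT20 between -0.01 (without plko replicate 3) and 0.41, and SPDEF between -0.16 and 0.08 (without shSORD replicate 3). GATA4 was 0.01 in both knockdowns with total counts as the scale, and 0.01 for shAKR1B1 with the stricter filter. Leaving out 1 library moved GATA4 between -0.09 and 0.08 for shAKR1B1 and between -0.26 and 0.08 for shSORD. The cause was not tested. Same-numbered knockdown and plko libraries did not deviate together (r from -0.126 to 0.12), so those pairs share only a number. With a replicate block 9994, 9817 and 5643 genes were called for shAKR1B1 against plko, shSORD against plko and shAKR1B1 against shSORD. Depth limits CDX2, FOXA3, GATA6-AS1 and BMP2, each below 100 counts per library. It also limits genes that are thin in plko, such as F7 (10 to 15 counts per plko library), LGALS4 (20 to 33) and KRT20 (24 to 42).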

Other observations

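Lung lineage factors moved in both directions. SOX2, SOX9, SPDEF, ELF3, KLF5 and CEBPA are counted here and among the other endodermal factors. Of 40 listed, 31 were tested; with shAKR1B1 16 rose and 7 fell (median log2 difference 0.3), and 11 rose and 10 fell with shSORD (median -0.06), beside 57.4% and 56.5% of all genes called. SPDEF, a factor of goblet cells, averaged 34.8 ± 2.13 CPM in shAKR1B1, 12.1 ± 2.16 CPM in shSORD and 12.8 ± 0.917 CPM in plko. It rose with shAKR1B1 (1.44, edgeR adjusted p = 3.07e-08) and did not pass with shSORD (-0.08, adjusted p = 0.54), and the difference between the knockdowns was 1.53 (adjusted p = 5.7e-08). RFX3, a ciliary factor, averaged 17.2 ± 0.754 CPM in shAKR1B1, 12.5 ± 0.439 CPM in shSORD and 7.27 ± 0.973 CPM in plko (1.25 with shAKR1B1 and 0.78 with shSORD, edgeR adjusted p = 3.04e-08 and 5.86e-06). Other forkhead genes went either way: FOXF2 and FOXQ1 fell and FOXC1 rose. FOXF2, a factor of mesenchyme, averaged 10.4 ± 0.701 CPM in shAKR1B1, 18.2 ± 0.771 CPM in shSORD and 30.0 ± 1.02 CPM in plko (-1.53 with shAKR1B1 and -0.72 with shSORD, edgeR adjusted p = 2.7e-10 and 5.86e-07). FOXQ1 averaged 6.61 ± 0.444 CPM in shAKR1B1, 9.21 ± 1.36 CPM in shSORD and 17.4 ± 0.806 CPM in plko (-1.39 with shAKR1B1 and -0.91 with shSORD, edgeR adjusted p = 3.01e-08 and 2.04e-06). FOXC1 averaged 31.2 ± 1.32 CPM in shAKR1B1, 32.3 ± 1.88 CPM in shSORD and 18.0 ± 0.537 CPM in plko (0.8 with shAKR1B1 and 0.85 with shSORD, edgeR adjusted p = 1.46e-07 and 1.02e-07).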
